A study of Drosophila melanogaster with 48 samples.

Results

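The genes described here encode the subunits of the fruit fly proteasome and the close copies of those subunits whose symbols end in T or R. They were taken as all genes whose current symbol begins with Prosalpha, Prosbeta, or Rpn or Rpt and a digit, and that have a probe set listing no other gene. The RefSeq gene table holds 48 such genes. Of these, 40 had a probe set of their own, among 11894 genes with such a probe set in the series, and each had exactly 1. They comprise 26 general subunits and 14 paralogs. Prosalpha1 and Prosalpha1R share 1 probe set and were left out, and Prosbeta1, Rpn9, Rpn10, Rpt1, Rpt6 and Rpt6R were not analysed here.

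The proteasome is the protease that degrades proteins tagged with ubiquitin in all eukaryotic cells. Its core particle is a stack of rings of alpha and beta subunits with the cutting sites inside, and a regulatory particle made of Rpt ATPases and Rpn subunits binds, unfolds and feeds in the tagged substrates. In Drosophila males many of these subunits have a second gene copy that is transcribed in the testis, so that germ cells late in spermatogenesis build proteasomes with alternative subunits.

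The data were 48 Affymetrix expression arrays of whole-body RNA from adult Drosophila melanogaster. Larvae of 8 numbered lines (158, 304, 362, 379, 380, 774, 786 and 859) were raised on cornmeal-molasses food, on that food with 9% ethanol, or on that food with added tomato paste. Every combination of line and medium had 2 arrays, giving 16 arrays for each medium and 6 for each line. After eclosion all flies shared the standard food, 25 °C and a light and dark cycle, so the media comparisons concern what larval food left in adults. An age of 3 to 5 days is given for 4 arrays. No genotype, allele or sex is labelled, and the numbers are read here as fly lines although no label explains them. Nothing states that the paired arrays were of independent cultures, so p-values based on their spread may measure technical error alone.

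Values are log2 of the deposited signal, a linear intensity in which each array had been scaled to the same trimmed mean. Tests used the 11261 probe sets with the highest mean signal, and a gene was called where limma's p, adjusted over all of them by the Benjamini-Hochberg method, was under 0.05. All 26 general subunits and 11 of the 14 paralogs passed this filter on signal. Prosalpha3T, Prosbeta4R2 and Prosbeta5R2, with means of 5.82, 5.02 and 4.97, fell below it and were not tested. General subunits had mean log2 signals from 10.92 (Rpt2) to 12.37 (Prosbeta3), and tested paralogs from 6.04 (Prosalpha4T1) to 8.09 (Prosalpha6T). Because probe sets bind with different strength, these levels do not rank the genes, and only differences within a gene are compared.

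Some features of the arrays touch the results below. Arrays of the same line and medium correlated with r from 0.783 to 0.991 over probe sets. In 9 arrays, 6 on tomato and 3 on ethanol medium, an index of eggshell genes (15 of 17 listed chorion and vitelline membrane genes, made in the ovary, averaged on the log2 scale) was under 10. It reached 3.67 in array 3 of line 362 on tomato medium, while the 16 standard arrays lay between 11.63 and 13.05. A hyphen before the array number stands in the titles of 15 arrays, 11 on tomato, 4 on ethanol and 0 on standard medium, and may mark a batch. A testis index, the mean of 28 of 39 listed genes of spermatocytes and spermatids, ran from 8.55 to 9.92 on standard, 8.91 to 10.16 on tomato and 9.06 to 10.17 on ethanol medium. Of its genes on the array only aly, comr and tomb were below the filter, and single genes could vary far more than the index, as wa-cup did with a range of line means of 7.14. In whole-body RNA, fewer cells of a type and less RNA per cell cannot be told apart.

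The lines differed in many proteasome genes, by small amounts in the general subunits and by larger amounts in the paralogs. The F-test over 8 lines called 14 of 26 general subunits (53.8%) and 8 of 11 tested paralogs (72.7%), against 61.8% of all 11261 probe sets, so neither share stood far from the background. The range between the lowest and the highest line mean had a median of 0.28 log2 units in the general subunits and 0.76 in the paralogs. Over all tested probe sets this median was 0.75. Among the 761 tested genes with mean signals in the span of the general subunits it was 0.61, and among the 2853 genes in the span of the paralogs it was 0.87. The median general subunit had a larger range than only 4.74% of all tested genes, and the median paralog a larger range than 50.9%. Replicate spread showed the same order, with a median SD within combinations of 0.13 in the general subunits, 0.39 in the paralogs and 0.33 over all tested probe sets. When the range was divided by that SD, the medians were 2.17, 1.90 and 2.23 for general subunits, paralogs and all tested genes.

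**Figure D1:**
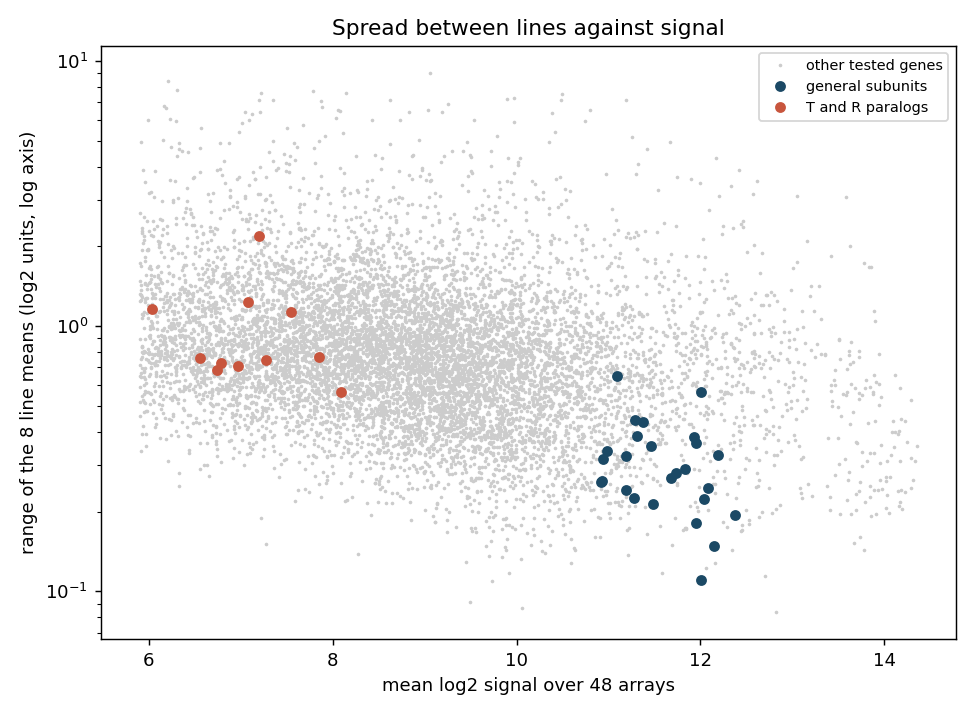
Range of the 8 line means (vertical, log2 units on a log axis) against mean log2 signal over 48 arrays (horizontal) for each tested gene, with the 26 general subunits in blue, the 11 tested paralogs in red and all other genes in grey. Most general subunits lie low in the grey cloud, with ranges from 0.11 to 0.65, where Prosalpha4 and Prosbeta4 (0.57) are the highest, and the paralogs lie within the cloud, from 0.56 to 2.19.

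Within the alpha ring, which gates the entry to the core, 4 of 6 general subunits were called. Prosalpha4 had the widest range, 0.65 log2 units or 1.57-fold (adjusted p = 0.0051, limma F-test). In line 380 its 6 arrays spanned 11.28 to 11.93 with a median of 11.31, in line 786 they spanned 10.98 to 11.66 with a median of 11.24, and in line 774 they spanned 10.51 to 11.24 with a median of 10.75. Every array of line 380 lay above every array of lines 304, 379 and 774, while the other pairs of lines overlapped. At least 1 pair of lines stood apart in this way in 11 of 26 general subunits and 4 of 11 tested paralogs, against 47.4% of all probe sets.

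Prosalpha6 was called with a range of 0.38 (adjusted p = 0.0097). Its arrays ran from 11.36 to 11.77 in line 859 and from 10.88 to 11.23 in line 774, with no overlap. Line 380 had its lowest mean at 11.11, but line 774 after median centring. Prosalpha5 ranged over 0.36, from a mean of 11.75 in line 786 to 12.11 in line 859, with line 158 highest after median centring (adjusted p = 0.0073). Prosalpha7 ranged over 0.29 and had its highest mean, 12.03, in line 859 under each scaling (adjusted p = 0.041), a call that held in 21 of 51 sets with an array or a medium left out. Prosalpha2 and Prosalpha3 were not called, with ranges of 0.18 and 0.28.

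The beta ring holds the cutting sites and had 3 of 6 general subunits called, including the 2 with the clearest line differences. Prosbeta4, a beta subunit without a cutting site of its own, had the largest F of the general subunits (12.2, adjusted p = 5.2e-06) and a range of 0.57, or 1.48-fold. Its arrays ran from 11.47 to 11.94 in line 158 (median 11.74) and from 11.47 to 12.01 in line 380 (median 11.71). By contrast they ran from 12.10 to 12.41 in line 859 (median 12.31), from 12.04 to 12.38 in line 379 and from 12.10 to 12.21 in line 304. Lines 158 and 380 were thus the low ones and did not overlap with 304, 379 or 859. Their own order is not settled, since line 380 had the lowest mean in the deposited scale and line 158 after quantile normalisation or median centring. In all, 8 of 28 pairs of lines stood apart for Prosbeta4.

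Prosbeta6, another beta subunit that does not cut, split the lines differently (F = 9.85, adjusted p = 3.0e-05). Its arrays lay between 11.60 and 11.82 in line 304 and between 11.58 and 11.92 in line 379, the low lines, with medians of 11.72 and 11.66. Lines 380 (11.96 to 12.28), 859 (11.96 to 12.22), 158 (11.89 to 12.14) and 786 (11.88 to 12.18) all lay above line 304 without overlap. So lines 304 and 379 were on the high side for Prosbeta4 and on the low side for Prosbeta6, and line 859 was high for both. The range was 0.38 log2 units, and 6 pairs of lines stood apart.

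Prosbeta2, which carries the trypsin-like activity, was called with a range of 0.22 (adjusted p = 0.045). In the deposited scale it had its highest mean in line 859 (12.16) and its lowest in line 362 (11.94), whereas line 380 was highest after either other scaling and line 774 lowest after median centring. Its call held in 18 of 51 sets with an array or a medium left out. Prosbeta5, with the chymotrypsin-like activity, and Prosbeta3 and Prosbeta7 were not called, at ranges of 0.24, 0.19 and 0.15.

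**Figure D2:**
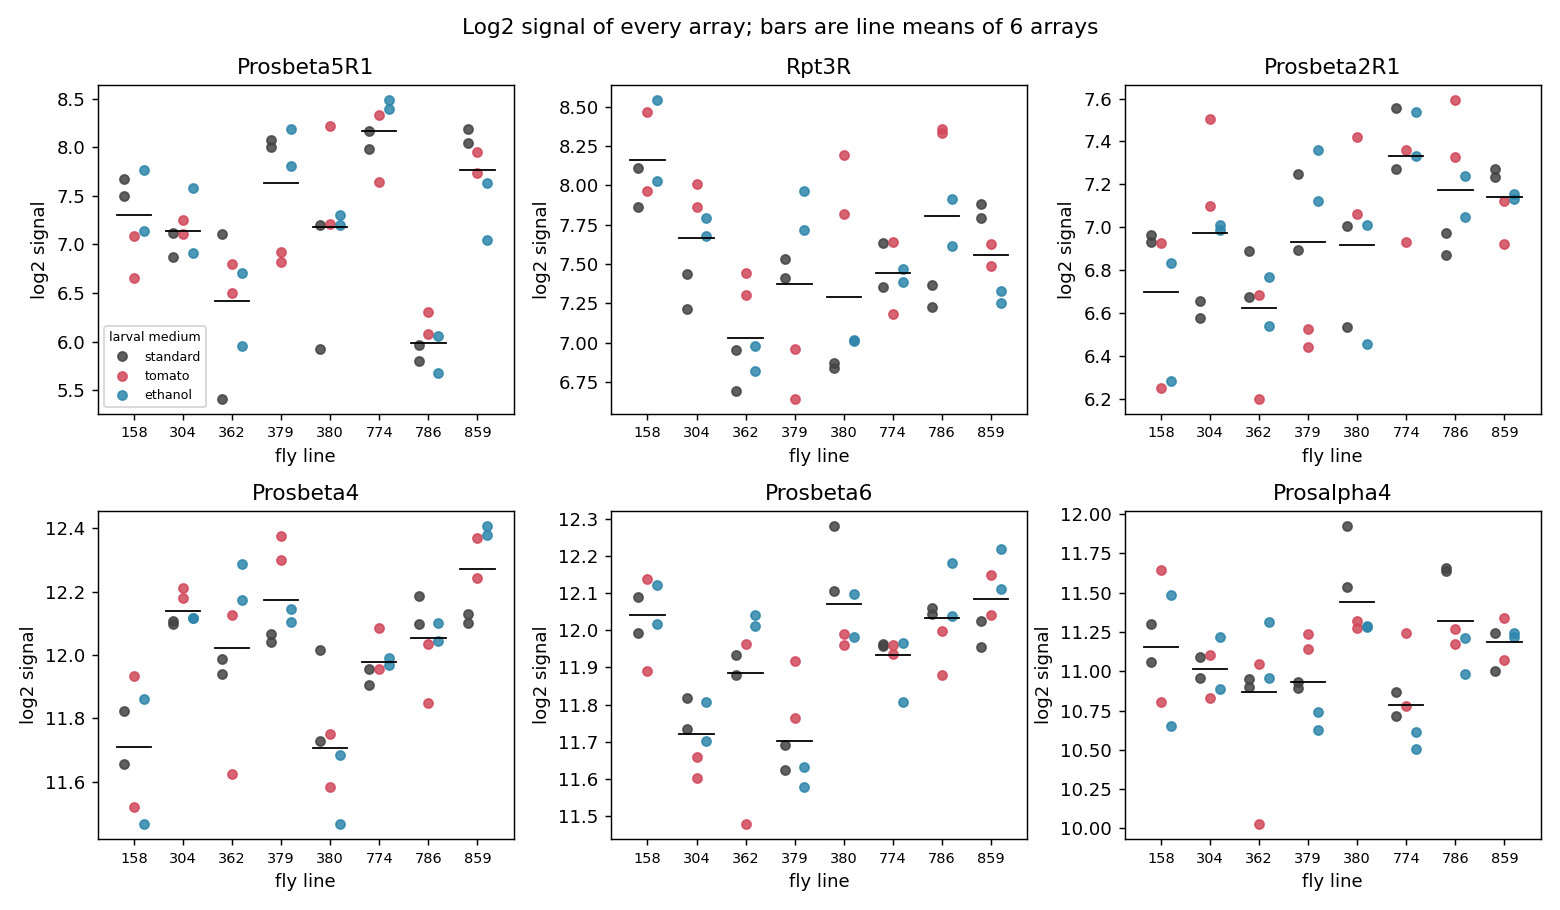
Log2 signal (vertical) of every array for 3 paralogs (top) and 3 general subunits (bottom) by fly line (horizontal), coloured by larval medium, with bars at the line means of 6 arrays; each panel has its own vertical scale. Prosbeta5R1 is low in line 786 on all media, Prosbeta4 is low in lines 158 and 380, and Prosbeta6 is low in lines 304 and 379.

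Among the non-ATPase subunits of the regulatory particle, 7 of 10 were called. Rpn2, a large scaffold subunit of its base, had arrays from 11.43 to 11.68 in line 786 (median 11.61) and from 11.08 to 11.25 in line 774 (median 11.16). Line 774 lay wholly below lines 380, 786 and 859, and the range of means was 0.43 (adjusted p = 0.0022). Rpn7 and Rpn12, parts of the lid, had ranges of 0.32 and 0.44, with the highest mean in line 158 for both under each scaling (adjusted p = 0.0083 and 0.036). Rpn1, the other large scaffold, and Rpn13, a ubiquitin receptor, had ranges of 0.34 and 0.35 (adjusted p = 0.011 and 0.020). The lid subunits Rpn5 and Rpn3 had ranges of 0.33 each (adjusted p = 0.013 and 0.047). The call of Rpn3 held in 13 of 51 sets with an array or a medium left out, and that of Rpn12 in 36. The highest mean of Rpn1, Rpn13, Rpn5 and Rpn3 was in line 380 under each scaling.

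Rpn6, Rpn8 and Rpn11 were not called. Rpn11 removes ubiquitin chains from substrates, Rpn8 is its partner and Rpn6 braces the lid against the core. Rpn6 was the steadiest of all, with line means from 11.95 to 12.06, a range of 0.11 and a median of 11.95 to 12.08 in each line. None of the 4 base ATPases tested (Rpt2, Rpt3, Rpt4 and Rpt5), which unfold substrates, was called, with ranges from 0.21 to 0.26. Rpt2 alone among these ATPases had an unadjusted p under 0.05 in the same limma test, as did 68.3% of all probe sets.

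Over the 26 general subunits, line 859 held the highest mean of 10 and line 380 that of 7, while line 362 held the lowest mean of 11 and line 786 that of 6. This order depends on the scaling: line 380 held the highest mean of 15 after quantile normalisation and of 20 after median centring, and line 859 that of 6 and 2. The line with most of the lowest means was 362 after quantile normalisation, with 14, and 774 after median centring, with 16. Single arrays also stood apart. Array 3 of line 362 on tomato medium was the lowest of all 48 arrays for 23 of 26 general subunits, with a mean over them of 11.04 against 11.37 in the next lowest array. It is also the array with the lowest eggshell index. Array 1 of line 380 on standard medium was the highest for 16 of them, with a mean of 11.91. Without the former array 14 general subunits were again called over the lines. Without the latter 11 were, and no share of all probe sets is given here for either. The same count was 18 after quantile normalisation, where 63.2% of all probe sets were called. After centring each array on its median it was 8, beside 58.3% of all. With the standard medium alone, 3 were called, beside 48.6% of all. With the eggshell index of each array as a covariate, 19 general subunits and 10 paralogs were called over lines, where 82.9% of all probe sets were.

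**Figure D3:**
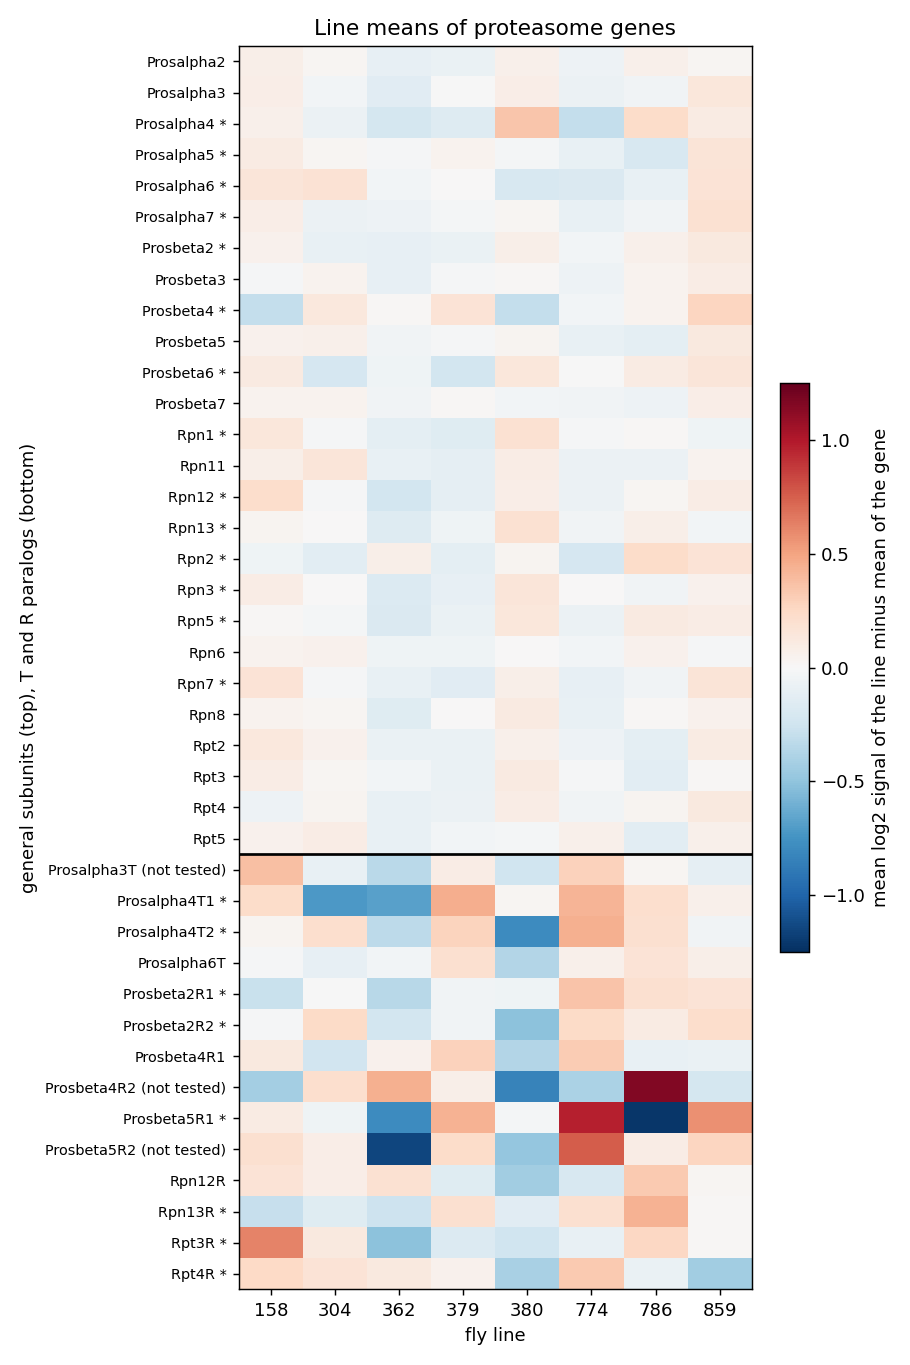
Mean log2 signal of each line minus the mean of the gene (colour, red higher, blue lower) for 26 general subunits above the black line and 14 paralogs below it; columns are the 8 lines, and an asterisk marks an adjusted p under 0.05 for lines. Colours are pale above the line, where no range exceeds 0.65, and deeper below it, with the strongest shade of blue at Prosbeta5R1 in line 786.

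Prosbeta5R1, the copy of the chymotrypsin-like subunit, had the largest line difference of all proteasome genes tested. In line 786 its 6 arrays lay between 5.68 and 6.31 with a median of 6.01, and in line 774 between 7.64 and 8.49 with a median of 8.25. The arrays of line 362 ran from 5.41 to 7.10 (median 6.60), and those of line 380 from 5.93 to 8.22 (median 7.21). Line 786 was below lines 158, 304, 379, 774 and 859 without overlap, and the values of line 380 were spread over most of the scale. The difference between the means of lines 774 and 786 was 2.19 log2 units, or 4.55-fold (F = 17.8, adjusted p = 1.7e-07, limma). Its general counterpart Prosbeta5 ranged over 0.24. Both remaining scalings gave the same lowest and highest line. The low signal in line 786 was not shared by the testis index, which ran from 9.53 to 10.06 in that line and from 8.55 to 9.86 in line 380.

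Rpt3R, the copy of the ATPase Rpt3, was next (F = 17.1, adjusted p = 2.5e-07, limma). Its arrays spanned 7.86 to 8.54 in line 158 (median 8.07) and 6.69 to 7.44 in line 362 (median 6.96), without overlap. The range of means was 1.13 log2 units, or 2.19-fold, against 0.24 for Rpt3. Line 774, with 7.18 to 7.64, also lay wholly below line 158, and all other pairs of lines overlapped.

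Both copies of Prosbeta2 were called. Prosbeta2R1 was lowest in line 362 (6.20 to 6.89, median 6.68) and highest in line 774 (6.93 to 7.55, median 7.35), a range of 0.70 (adjusted p = 0.0019). Prosbeta2R2 was lowest in line 380 (5.53 to 7.66, median 6.82) and highest in line 774 (7.38 to 7.58, median 7.54), or in line 304 after either other scaling, with a range of 0.75 (adjusted p = 0.0077). Lines 380 and 774 overlapped for Prosbeta2R2, and no pair of lines stood apart. The copies of Prosalpha4 were called as well, with Prosalpha4T2 from a mean of 6.29 in line 380 to 7.53 in line 774 (range 1.23, adjusted p = 0.0027). Prosalpha4T1 had a mean of 5.33 in line 304 and 5.36 in line 362 and of 6.49 in line 379 (range 1.16, adjusted p = 0.024), and no pair of lines stood apart.

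Rpt4R and Rpn13R, copies of an ATPase and of the ubiquitin receptor, were called with ranges of 0.76 and 0.72 (adjusted p = 0.039 and 0.049). The call of Rpn13R held in 8 of 51 sets with an array or a medium left out and in 7 of 13 other settings, and that of Rpt4R in 38 of 51 and 9 of 13. Rpt4R had its lowest means in lines 859 (6.12) and 380 (6.16) and its highest in line 774 (6.88), or in line 158 after either other scaling. Prosbeta4R1 lay just past the threshold (adjusted p = 0.050, range 0.68), and Rpn12R and Prosalpha6T were not called, with ranges of 0.77 and 0.56. Line 774 held the highest mean of 6 of the 11 tested paralogs, or of 3 after either other scaling, and line 380 the lowest of 5, or of 4 after quantile normalisation and 3 after median centring. Array 1 of line 380 on standard medium, the highest array for most general subunits, was the lowest array for 6 of 11 paralogs, and the lowest of all 48 in testis index (8.55). It was also lowest in the indices of muscle (11.08), of the nervous system (6.80) and of genes listed as testis copies of other machinery (7.79). That array was the highest in those of ubiquitin (11.45) and protein folding (12.29) genes. All 11 paralogs had a larger range of line means than the general counterpart of the same number, and all 11 also had a larger SD within combinations. The ratio of range to that SD was larger in 6 of 11.

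The 3 paralogs below the filter are given without a test. Prosbeta4R2 ran from 5.83 to 6.51 in line 786 (median 6.16) and from 4.26 to 4.91 in line 158 (median 4.57). Line 786 was above lines 158, 379, 380, 774 and 859 without overlap, and the range of means was 1.99. It was thus high in the line where Prosbeta5R1 was low. Prosbeta5R2 ran from 5.46 to 6.13 in line 774 and from 1.64 to 5.61 in line 362, and Prosalpha3T from 5.71 to 6.69 in line 158 and from 4.87 to 5.88 in line 362. Signals this low are uncertain, as the spread within line 362 shows for Prosbeta5R2.

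Larval medium left no difference that passed the test in any proteasome gene. With limma on the 24 means of line and medium, 0 of 37 tested members were called for tomato against standard medium, where 1.15% of probe sets were called, 0.817% higher and 0.329% lower on tomato medium. For tomato against ethanol 0 were called, beside 0.107% of all probe sets, and for ethanol against standard 0, beside 0% of all. At an unadjusted p under 0.05 there was 1 member for tomato against standard (Rpn2), 1 for tomato against ethanol (Prosbeta2) and 0 for ethanol against standard. The shares of all probe sets at that threshold were 21.2%, 6.72% and 5.58%. No other test than limma was run.

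For tomato against standard medium the general subunits had a median difference of -0.04 log2 units, with 8 higher and 18 lower, and the paralogs a median of 0.05, with 7 higher and 4 lower. The median of all 11261 probe sets was -0.01, with 5438 higher and 5823 lower. The general subunits split into 6 higher and 20 lower after quantile normalisation and 5 and 21 after median centring. The paralogs split into 6 and 5 after both. All probe sets split into 5643 higher and 5618 lower after quantile normalisation and 4807 and 6454 after median centring. Neither class of members kept its direction in every setting. Among arrays titled with a space alone the median was 0.07 for general subunits and -0.25 for paralogs, with the eggshell index as a covariate 0.06 and -0.23, and with the array number as a block 0.02 and -0.11. Without the arrays of a low eggshell index these medians were 0.01 and -0.08. The median of the paralogs was also below 0 without line 304, 380 or 786, at -0.002, -0.08 and -0.007. Rpn2 had arrays from 11.19 to 11.67 on standard medium (median 11.46) and from 10.82 to 11.79 on tomato medium (median 11.27), and the groups overlapped. Its means over lines were 11.45 ± 0.14 and 11.28 ± 0.19 (SD, n = 8 lines), a difference of -0.17 with an SE of 0.07, lower in 6 of 8 lines (adjusted p = 0.19, limma). The other members with the smallest p were Prosalpha6 (-0.19, SE 0.10), Rpt3R (0.32, SE 0.18), Prosbeta2 (-0.09, SE 0.06) and Rpn11 (-0.11, SE 0.08), with adjusted p from 0.27 to 0.39. All 5 of these differences turned sign in some setting. Among arrays titled with a space alone they were 0.009 for Rpn2, 0.07 for Prosalpha6 and 0.10 for Rpn11. With the eggshell index as a covariate they were 0.05 for Prosalpha6, 0.01 for Prosbeta2, 0.04 for Rpn11 and -0.04 for Rpt3R. With the array number as a block, Prosalpha6 and Rpn11 were at 0.02 and 0.03. Without line 379, 3 members passed, namely Rpn2 (-0.21), Prosalpha6 (-0.25) and Rpt3R (0.46), with adjusted p of 0.041, 0.048 and 0.040. With all 8 lines none of these 3 genes passed, and the share of all probe sets called without line 379 is not given here.

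The eggshell list moved with the same contrast. All 15 of its tested genes were lower on tomato than on standard medium, with a median difference of -1.94 log2 units, and 3 were called. Their summed signal ran from 336 to 181869 on tomato medium and from 82509 to 174454 on standard medium. The low values were in tomato arrays titled with a hyphen, with a mean eggshell index of 9.41 (3.67 to 12.16). Tomato arrays titled with a space had a mean of 12.13 (11.60 to 13.11), and standard arrays one of 12.31 (11.63 to 13.05). With the arrays of a low eggshell index left out, a choice made after the values were seen, again 0 members were called for tomato against standard. The summed signal of the testis list overlapped between media, from 18508 to 52397 on standard, 24854 to 62136 on tomato and 27571 to 61219 on ethanol medium.

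For ethanol against standard medium the medians were -0.01 for general subunits, with 12 higher and 14 lower, and 0.02 for paralogs, with 7 higher and 4 lower. The paralog median changed sign to -0.003 after quantile normalisation and -0.02 after median centring, each with 5 higher and 6 lower. With the eggshell index as a covariate the medians were 0.06 for general subunits and -0.15 for paralogs. The general subunits split into 13 and 13 after quantile normalisation and 6 higher and 20 lower after median centring. All probe sets split into 5711 higher and 5550 lower after quantile normalisation and 4633 and 6628 after median centring. The smallest p belonged to Prosbeta5, with arrays from 12.00 to 12.42 on standard and 11.61 to 12.27 on ethanol medium. Its difference was -0.14 with a 95% interval from -0.31 to 0.02 (adjusted p = 0.84, limma). Rpn13R differed by 0.29 with an interval from -0.05 to 0.64 and was higher in 7 of 8 lines. Prosalpha4 (-0.15), Rpt5 (0.08) and Prosbeta7 (-0.08) followed.

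Tomato against ethanol gave medians of -0.03 and -0.01 for general subunits and paralogs. Prosbeta2 was lower on tomato medium in 7 of 8 lines, by -0.13 with an interval from -0.26 to -0.0009 (adjusted p = 0.74, limma). Its arrays ran from 11.39 to 12.22 on tomato and 11.89 to 12.34 on ethanol medium and overlapped. Next came Rpn2 (-0.11), Prosbeta4R1 (0.29), Rpt4 (-0.09) and Rpn13 (-0.09). Among arrays titled with a space alone all 4 turned sign, to 0.12, -0.27, 0.03 and 0.12, while the median of the general subunits was 0.12 and that of the paralogs -0.44. Prosbeta2 kept its sign in each setting tried. The 3 contrasts share their media and are not independent.

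**Figure D4:**
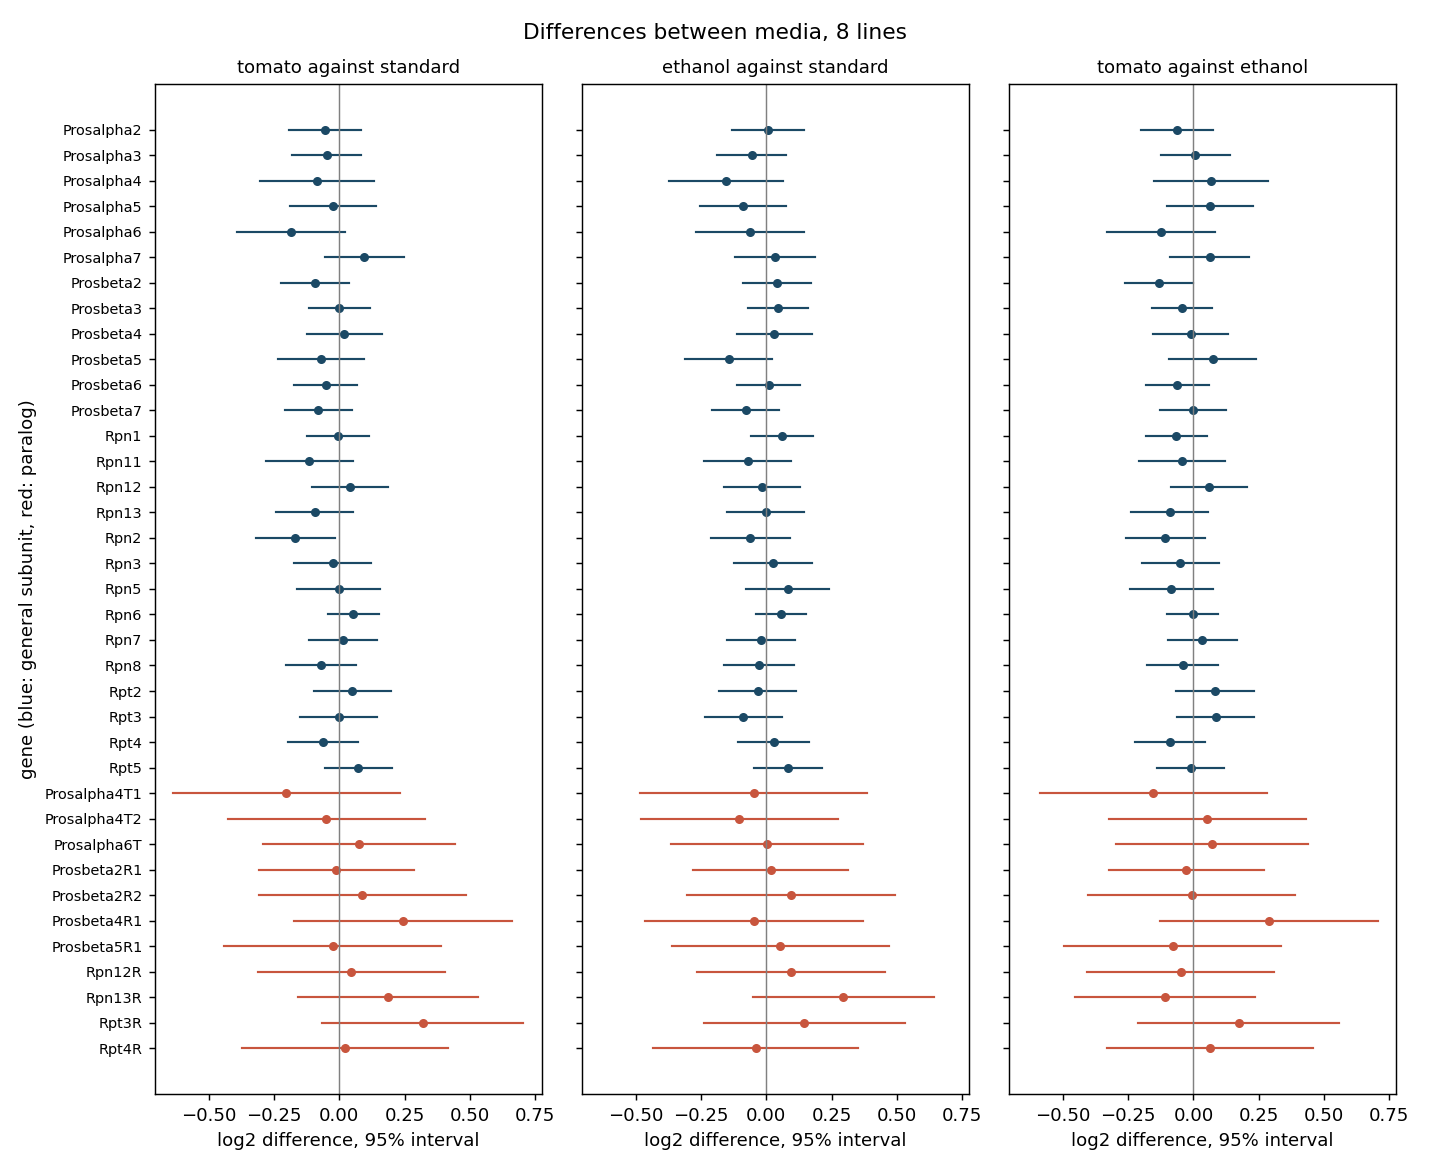
Differences in log2 signal between media (horizontal, points, with 95% intervals as bars) for 26 general subunits (blue) and 11 tested paralogs (red), in 3 panels by contrast. Points of the general subunits lie within 0.19 of 0 in every panel, the intervals of the paralogs are wider, and no gene was called.

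The response to medium was compared between lines with the interaction of line and medium. No member was called, where 0% of all 11261 probe sets were called. At an unadjusted p under 0.05 in the same limma F-test there were 4 of 26 general subunits and 5 of 11 paralogs, beside 12.9% of all probe sets. That threshold was met by 101 of the 761 genes in the signal span of the general subunits. In the signal span of the paralogs it was met by 516 of 2853 genes. Of the testis list 19 of 28 genes met it, and of the genes listed as testis copies of other machinery 11 of 24. Among the members the smallest p was that of Rpt3R (F = 7.01, adjusted p = 0.057, limma). Prosbeta2R2 (0.29), Prosbeta4R1 (0.31), Prosbeta5 (0.31) and Prosalpha5 (0.31) followed, where the numbers are adjusted p.

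The values of Rpt3R, whose interaction was not called, differed in opposite directions in different lines. In line 380 its arrays read 6.87 and 6.84 on standard, 7.82 and 8.19 on tomato and 7.01 and 7.02 on ethanol medium. In line 786 they read 7.23 and 7.37 on standard, 8.36 and 8.34 on tomato and 7.62 and 7.92 on ethanol medium. In line 379 they read 7.41 and 7.53 on standard, 6.64 and 6.96 on tomato and 7.72 and 7.97 on ethanol medium. Tomato was thus higher than standard medium by 1.15 in line 380 and by 1.05 in line 786, and was lower in line 379, where the difference was -0.67. Over all 8 lines both tomato arrays were above both standard arrays in 4, below them in 2 and overlapping in 2. The interaction of Rpt3R passed the threshold in 13 of the 48 sets with 1 array left out. It also passed with the title spelling as a block (adjusted p = 0.0083, limma), where 16.3% of all probe sets passed.

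Prosbeta2R2 had the same signs in lines 379 and 380, with tomato minus standard at -1.14 and 1.33. Its arrays in line 380 read 5.53 and 6.79 on standard and 7.33 and 7.66 on tomato medium, and in line 379 they read 7.73 and 7.49 on standard and 6.47 and 6.47 on tomato medium. The wide gap between the 2 standard arrays of line 380 is part of this difference. Every tested paralog was lower on tomato than on standard medium in line 379 and higher in line 380. The testis index moved the same way, from 9.80 and 9.79 on standard to 8.91 and 9.06 on tomato medium in line 379. In line 380 it went from 8.55 and 9.31 to 9.42 and 9.86. The part of this shift in single paralogs was not tested. With the title spelling as a block, 4 general subunits and 3 paralogs passed for the interaction, beside 16.3% of all probe sets.

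The title spelling itself was tested in the 5 tomato combinations that hold 1 array of each kind. Prosalpha6 alone was called, beside 43.1% of all probe sets, and 7 of 37 members had an unadjusted p under 0.05, beside 54.1% of all. It read 11.08 on average in arrays with a hyphen and 11.48 in arrays with a space, lower with the hyphen in 5 of 5 pairs (difference -0.40, SE 0.12, adjusted p = 0.029, limma). This call was absent when any of the pairs of lines 158, 362, 379 or 859 was left out. Without the pair of line 786, 5 members were called. The share of all probe sets called without that pair is not given here, so the count cannot be set against it. Of the general subunits 24 of 26 were lower with the hyphen, at a median of -0.15, and of the paralogs 10 of 11 were higher, at a median of 0.29. Over all probe sets the median was 0.05, and for the genes in the signal span of the paralogs it was 0.27. The 15 eggshell genes were all lower with the hyphen, by a median difference of -3.67, so spelling and eggshell signal cannot be told apart in these pairs.

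The members of each class varied together over the 24 combinations, as a description. Correlation with the mean of the own class had a median of 0.74 in the general subunits, from 0.13 (Prosbeta4) to 0.92 (Prosalpha3), and of 0.62 in the tested paralogs, from 0.44 (Prosbeta5R1) to 0.86 (Prosalpha6T). Each mean contains the gene itself, and all combinations share the scaling of arrays. The mean of the paralogs followed the testis index with r = 0.85. It followed an index of 24 genes listed as testis copies of other machinery with r = 0.95. Whether each gene of that list is transcribed mainly in the testis was not tested. In the differences between the 2 arrays of each combination, r was 0.95 and 0.97. The paralogs thus also moved with both indices between arrays of the same line and medium. The median signal of an array ran from 84.2 to 160.2, although the trimmed means were equal. Whether other genes of low signal moved in the same way was not tested. All 11 tested paralogs had a correlation above 0 with the testis index and all 26 general subunits had one below 0 (n = 24 means). The mean of the general subunits had r = -0.47 with the testis index, 0.50 with the eggshell index and -0.49 with the mean of the paralogs. A paralog and its counterpart of the same number had a median r of -0.23, from -0.61 (Rpt4R with Rpt4) to 0.01.

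**Figure D5:**
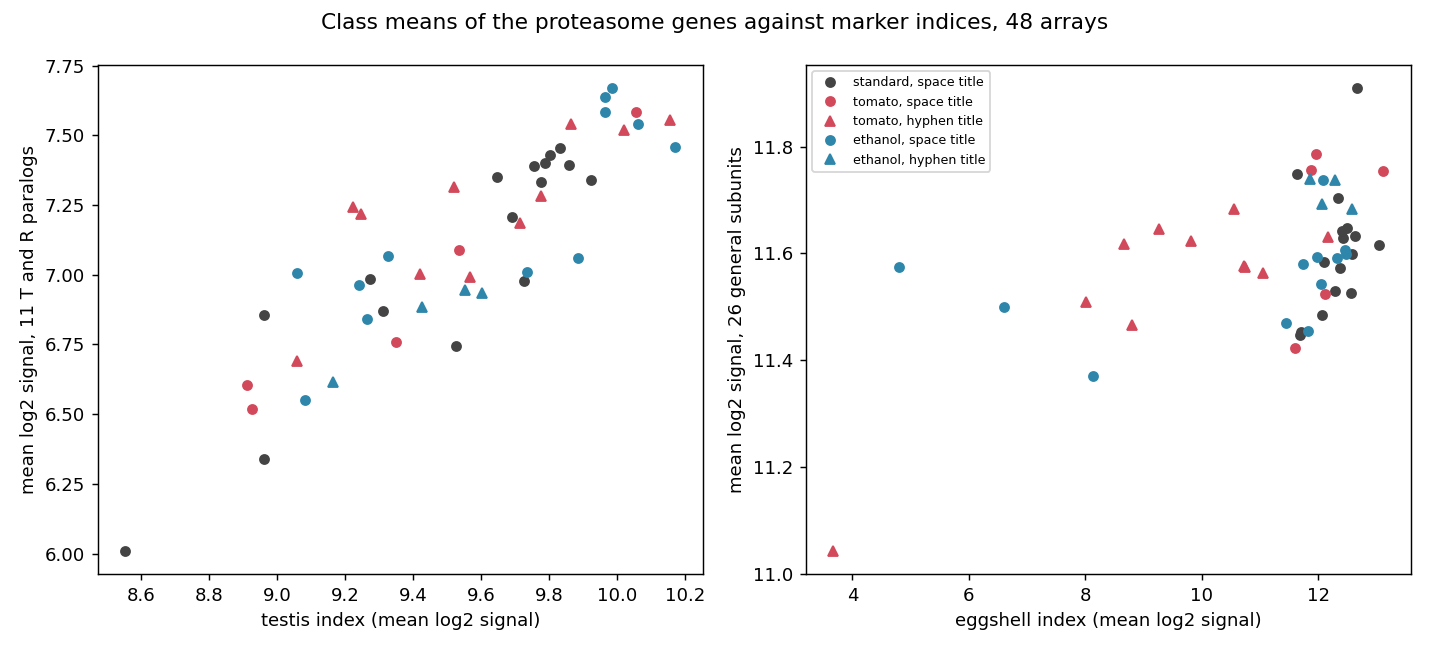
Mean log2 signal of the 11 tested paralogs against the testis index (left) and of the 26 general subunits against the eggshell index (right), 1 point for each of 48 arrays, coloured by medium, with triangles for titles with a hyphen. Paralog means rise from 6.01 to 7.67 along the testis index, and the lowest point on the right is array 3 of line 362 on tomato medium, at 11.04.

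Rpt3R and Prosalpha4T1 were the loosest followers of the testis index between paired arrays, at r of -0.18 and 0.15, against 0.93 for Prosalpha6T, 0.88 for Prosbeta5R1 and 0.87 for Rpn13R. Genes most like the mean of the general subunits over the 24 combinations were SmD2 (r = 0.89), a splicing protein, Usp14 (0.89), a deubiquitinase bound to the proteasome, and CG18528, Txl, Ssb-c31a, dmpd, CG5339, CG7483, CG12123 and flr, down to 0.85. Those most like the mean of the paralogs were CG13476 (0.96), CG4546, CG3982, CG32445, CG14658, Ppm1, S-Lap8, CG30412, CG9920 and COX5BL, down to 0.95, and S-Lap8 is also in the testis list.

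Other genes of the pathway were called over lines to a varying degree, beside 61.8% of all probe sets. In the list of proteasome assembly and regulation, 10 of 14 tested genes were called over lines, with a median range of 0.60. The smallest p were those of cnc, the transcription factor known to drive proteasome genes (range 2.11, adjusted p = 2.0e-16, limma), PI31, a proteasome regulator (0.85), and maf-S, the partner of cnc (0.73). By range, akirin (1.04) and ntc (0.94) came after cnc. Of 20 genes for ubiquitin, its activation and p97, 10 were called, with a median range of 0.29. The smallest p were those of Roc1a (0.73) and SkpA (0.36), parts of ubiquitin ligases, and Cul3 (0.25), a ligase scaffold. Of 17 chaperone genes 5 were called, with a median range of 0.47, led by Hsp27 (2.39). Among the 24 genes listed as testis copies of other machinery 16 were called, with a median range of 0.71. No gene of these 4 lists was called between media or for the interaction. Their median tomato minus standard differences were -0.05, -0.06, -0.23 and 0.04.

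Marker lists of other tissues give the frame for the line values. The share of all probe sets called over lines was 61.8%. Over lines, 20 of 28 testis genes, 18 of 22 accessory gland genes, 8 of 10 muscle genes, 4 of 7 neuronal genes, 0 of 15 eggshell genes and 0 of 3 yolk protein genes were called. The testis index had its highest line mean, 9.96, in line 774, and its lowest, 9.18 and 9.25, in lines 304 and 380. The summed signal of the testis list ran from 37659 to 62136 in line 774 and from 18508 to 47673 in line 380. With the testis index of each array as a covariate, 10 of 11 paralogs and 19 of 26 general subunits were called over lines, where 89.8% of all probe sets were.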

How the data were processed

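Per the submitters' processing notes, the authors made the signals with MAS5, and no version is given in the sources used here. The deposited intensity values are linear. With 2% trimmed from both ends the array means all came to 500.0, the mark of scaling to a shared target. A floor of 1 was set before log2, and nothing else was normalised. The 183 array controls were dropped and the upper 60% of probe sets by mean kept (mean signal above 59.7). The platform table gave gene numbers, which for 13544 of 13647 single-gene probe sets matched RefSeq names of assembly Release 6 plus ISO1 MT. Tests used limma 3.58.1 in R 4.3.3 with an intensity trend. Media were fitted on 24 combination means with line as a term (14 residual degrees of freedom), lines and interaction by F-tests on 48 arrays (24 residual degrees of freedom). The number of arrays limits precision. All members could be named, and where under 5 were called the 5 smallest p values were named as not passing. Members and lists were chosen with earlier results of these data known. The steps were tested on simulated data. Alternatives covered normalisation, filter, pseudocount, title spelling, replicate block, index covariates and arrays, lines or media left out.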

Additional observations from a re-analysis of the deposited data

Results flagged for a closer look

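Among the 6 arrays of a line, 24 of 296 sets of values of tested genes (8.11%) had an array past Dixon's 95% limit. That limit gives about 1 in 20 for independent values of 1 distribution. Here the arrays of a line span 3 media and the genes share arrays, so the share cannot be set against it. Array 3 of line 362 on tomato medium was low in 7 genes, namely Prosalpha4 (10.03), Prosalpha5 (11.48), Prosalpha6 (10.53), Prosbeta2 (11.39), Prosbeta5 (11.57), Prosbeta6 (11.48) and Rpn11 (10.94). Its eggshell index of 3.67 was the lowest of all arrays, and the part of this in the 7 values was not tested. Array 1 of line 380 on standard medium was high in 4 genes, Prosalpha2 (12.34), Prosalpha3 (12.13), Rpn3 (11.64) and Rpt4 (11.80).

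In line 786 on tomato medium, array 2 was low in Rpn1 (10.75), Rpn2 (11.43) and Rpn3 (10.90), and array 3 was high in Rpt2 (11.14). In line 774, array 2 on ethanol medium was low in Prosbeta5 (11.61) and Rpn7 (10.57), array 1 on ethanol medium was low in Prosbeta6 (11.81), and array 4 on tomato medium was low in Prosalpha6 (10.88) and high in Rpn1 (11.09). In line 304, array 1 on ethanol medium was low in Prosalpha4T1 (3.42) and Rpn5 (12.04), and array 1 on standard medium was high in Prosalpha5 (12.05). Array 2 of line 158 on tomato medium was low in Prosalpha4T1 (5.23).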

How the results depend on the processing

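For lines, 14 general subunits and 8 paralogs were called. Centring on the median gave 8 general subunits, beside 58.3% of all probe sets, and standard medium alone gave 3 and 5, beside 48.6%. With line and medium as additive terms, added after the data were seen, 5 paralogs were called. With the upper 40% of probe sets 0 paralogs were called, since all lie below that filter. With parts left out, general subunits ranged from 3 (without standard medium) to 22 (without array 1 of line 362 on tomato medium) and paralogs from 2 (without ethanol medium) to 10. Without array 2 of line 362 on standard medium 9 general subunits were called, and without array 4 of line 304 on tomato medium 5 paralogs. Without standard medium 3 paralogs and without ethanol medium 4 general subunits were called. For the additive terms and the parts left out, the share of all probe sets called is not given here. These counts therefore cannot be set against it.

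For the interaction, 1 paralog (Rpt3R) was called after quantile normalisation, with the eggshell index as a covariate and without the arrays of a low eggshell index, against 0. The title block gave 3 paralogs and 4 general subunits, and single arrays left out gave 0 to 1 paralogs. For tomato against standard the testis index as a covariate gave 3 members, Rpn2 and Rpt3R among them, beside 25.5% of all probe sets. Lines left out gave 0 to 3 members for that contrast. For tomato against ethanol the testis covariate gave 1 (Prosbeta4R1), beside 1.95% of all probe sets. Title pairs left out gave 0 to 5 members. The shares of all probe sets called with arrays, lines or title pairs left out are not given here. The cause was not tested in any of these cases.

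Whether array numbers pair the samples was checked only for arrays numbered 1, so a block at other numbers was not tested. The deviations of arrays numbered 1 correlated between -0.77 and 0.71 over 153 pairs, with a median of -0.01. With the array number as a replicate block, 21 general subunits and 10 paralogs were called over lines, where 78.2% of all probe sets were. In the other comparisons 0 members were called, where 0% of all probe sets were for tomato against standard medium.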
